A study of Sus scrofa with 18 samples.

Results

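The transcripts described here are those of 7 genes that the glucocorticoid receptor switches on in many tissues: FKBP5, TSC22D3, KLF9, CEBPD, ZBTB16, PER1 and SGK1. They were chosen by name as textbook targets of the receptor, with earlier results of these data known, and the rule itself uses no measured value. Every probe set that the probe-to-gene table assigns to exactly 1 of these symbols was taken, where a probe set is a group of array probes for 1 transcript. This gave 12 probe sets of the 23935 tested, for 6 of the 7 listed genes and of the 6765 genes the table names. ZBTB16, a zinc finger repressor, has no probe set in that table and was not analysed here. CEBPD has 3 probe sets, SGK1 has 1 and the other 4 genes have 2 each.

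The glucocorticoid receptor is a transcription factor that rests in the cytoplasm in a complex with HSP90 and its partner proteins. Cortisol, the main glucocorticoid of pigs as of humans, binds the receptor, which then moves to the nucleus, binds DNA and raises the transcription of its targets, often within hours. Cortisol rises under surgical and circulatory stress, and cardiomyocytes carry the receptor. The targets act in different ways: FKBP5 feeds back on the receptor itself, TSC22D3 carries part of the anti-inflammatory action, KLF9, CEBPD and ZBTB16 are transcription factors, PER1 belongs to the circadian clock, and SGK1 is a kinase that acts on ion channels and transporters.

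The tissue was the right ventricular free wall of 9 pigs, crosses of Hampshire, Yorkshire and Swedish Landrace. Each pig gave 1 baseline sample and 1 sample after coronary ligation, when the ventricle was failing, so that 9 baseline and 9 failure arrays were compared. The labels of 6 pigs (numbers 6, 8, 9, 11, 12 and 13, label set 1) give 120 min of ischemia, and those of 3 pigs (5, 10 and 14, label set 2) define failure by a right atrial pressure above 20 mmHg. Every pig was ligated, so time since the first sample and ligation cannot be told apart, and no cortisol measurement was used here.

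Levels are given as the deposited log2 intensities, on which 1 unit is a doubling of signal. Probes differ in brightness, so levels of different genes are not compared. All 9 measured cardiomyocyte markers lay above the median level of all probe sets, 5.63, and their mean per array ran from 14.03 to 14.23 at baseline and from 13.84 to 14.29 in failure. None of the 5 neutrophil and 8 lymphocyte markers lay above that median (0 of 5 and 0 of 8). Neutrophil markers averaged 3.77 to 4.02 at baseline and 3.77 to 4.25 in failure and were higher in 6 pigs, while lymphocyte markers were higher in 1 pig. The mean of the 5 red blood cell markers was lower in failure in all 9 pigs (0 of 9 higher). It ranged from 6.60 to 7.88 at baseline and from 5.64 to 6.91 in failure. ALAS2, AHSP and HBM were past the threshold (3 of 5), against 0.0668% of all probe sets. The fall was smallest for HBB, at -0.24 (limma adjusted p = 0.770), where 3 pigs went up and 6 went down. In whole tissue, fewer cells of a type and less RNA per cell cannot be told apart.

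No target probe set passed the test of failure against baseline. It sets the mean paired change against the spread of such changes over pigs, which limma draws towards that of the other probe sets. The SE and intervals of changes come from this adjusted spread. In limma with pig as a block, 0 of 12 passed an adjusted p of 0.05 (adjusted p from 0.637 to 0.983), and 1 of 12, for KLF9, had an unadjusted p under 0.05. The background was 16 of 23935 probe sets past the threshold (0.0668%; 0.0209% higher and 0.046% lower; 2 to 26 probe sets when 1 pig was left out), and 6.14% at an unadjusted p under 0.05, of which the higher ones were 3.31% of all. Baseline and failure ranges overlapped for each of the 12 targets, as they did for every probe set on the array (0% without overlap).

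The mean paired change was above 0 for 10 of the 12 probe sets, against 50.2% of all probe sets. With each gene represented by its brightest probe set it was above 0 for 5 of 6 genes, against 46.4% of 6765 named genes. The median change was 0.08 over the 12 probe sets and 0.12 over the 6 genes, beside 0.00034 over all probe sets and -0.01 over the named genes. The changes were small: the brightest probe sets ran from -0.07 for TSC22D3 to 0.19 for CEBPD. A value higher in at least 8 of 9 pigs was seen for 1 of 12 probe sets (KLF9), against 2.22% of all probe sets and 1.86% of named genes.

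**Figure D1:**
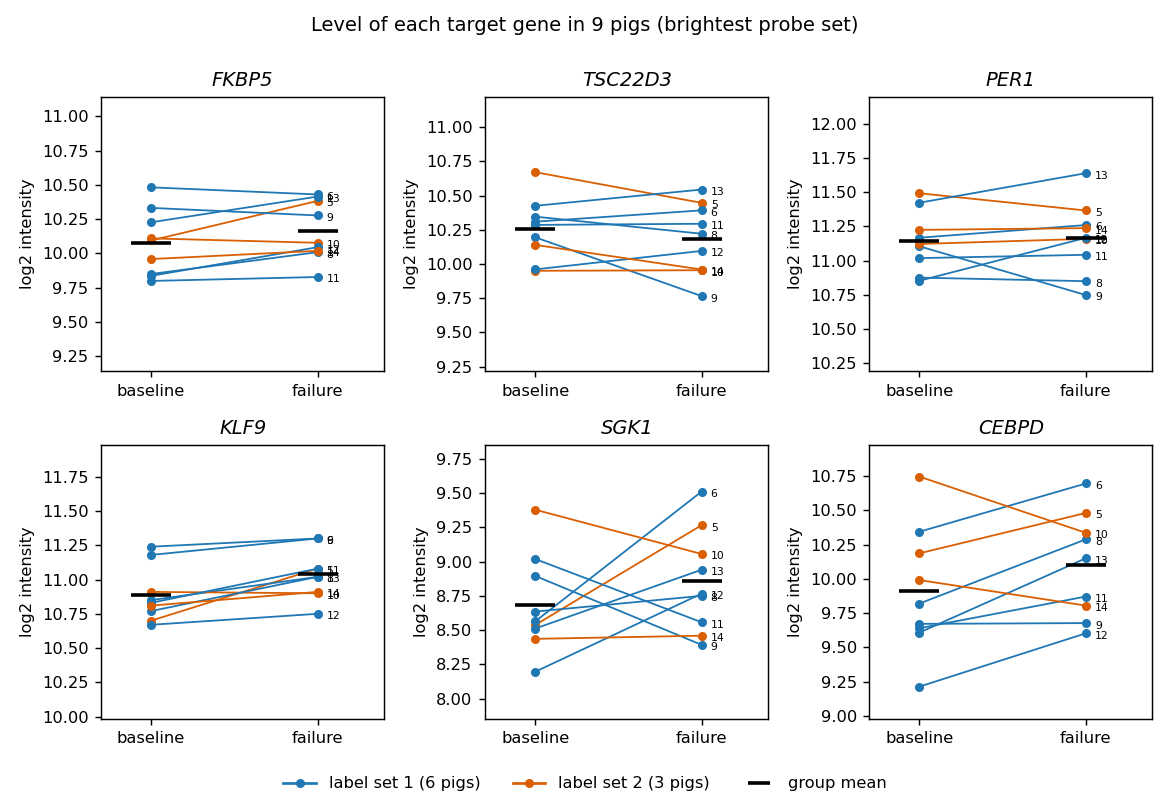
Log2 intensity (vertical axis, spanning 2 units in each panel) of the brightest probe set of 6 target genes at baseline and in failure, with a line per pig numbered at its failure value and black bars for group means. The lines of KLF9 run upward in 8 of 9 pigs, and those of SGK1 cross.

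FKBP5 encodes an HSP90 co-chaperone that lowers the receptor's affinity for hormone and is itself induced by the receptor, which closes a feedback loop. Its brightest probe set had baseline levels from 9.80 in pig 11 through a median of 10.09 to 10.48 in pig 6. In failure it ran from 9.83 in pig 11 through 10.08 to 10.43 in pig 6. The same pigs were lowest and highest at both times, and the groups overlapped almost wholly. The group means were 10.08 ± 0.24 and 10.16 ± 0.22 (SD, n = 9). The mean change was 0.09 (SE 0.06, 95% interval -0.03 to 0.21, adjusted p = 0.883), a ratio of 1.06 with an interval of 0.977 to 1.16. Changes ranged from -0.06 in pig 9 to 0.29 in pig 5, and 6 of 9 pigs were higher. The SD of the change over pigs, 0.13, lay at the 8.23 percentile of all probe sets. A second, dimmer probe set (mean level 5.48) gave a mean of 0.14 (SE 0.08, adjusted p = 0.868), with 6 of 9 pigs higher, not the same 6. Its highest change was in pig 11 (0.57), and its changes did not follow those of the brightest across pigs (r = -0.321). The SD of its change, 0.26, lay at the 67.5 percentile, so the probe sets of FKBP5 differ in how steady they were.

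TSC22D3 encodes the leucine zipper protein GILZ, which binds NF-kB and AP-1 and restrains inflammatory transcription. It was the 1 gene whose brightest probe set had a mean change below 0. Baseline levels ran from 9.95 in pig 10 through 10.29 to 10.67 in pig 5, and failure levels from 9.77 in pig 9 through 10.22 to 10.54 in pig 13. The mean went from 10.25 ± 0.23 to 10.19 ± 0.26 (SD, n = 9), a change of -0.07 (SE 0.07, interval -0.21 to 0.07, adjusted p = 0.934). Individual pigs did not share that sign: 5 of 9 were higher, by 0.13 at most, and pig 9 was lower by far the most (-0.43), without which the mean was -0.02. The other probe set is dim, with a mean level of 3.69 where the 25th percentile of all probe sets is 3.98. Its mean difference was 0.07 (SE 0.05, adjusted p = 0.899), and 7 of 9 pigs were higher.

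KLF9 encodes a Krüppel-like zinc finger factor that is induced directly by the receptor and in turn modulates other targets. It was higher in failure in more pigs than any other target. The deposited values of its brightest probe set carry 2 decimals, as do those of some other genes named below. At baseline they ran from 10.67 in pig 12 through 10.83 to 11.24 in pig 6. In failure they ran from 10.75 in pig 12 through 11.02 to 11.30 in pig 6. Pig 12 was lowest at both times and pig 6 highest, level with pig 9 in failure, and the ranges overlapped over most of their length. The mean went from 10.88 ± 0.20 to 11.04 ± 0.18 (SD, n = 9), a change of 0.16 (SE 0.06, interval 0.04 to 0.27), or 1.11-fold (1.03 to 1.21). It was higher in 8 of 9 pigs, from -0.01 in pig 10 to 0.38 in pig 5. The unadjusted limma p of 0.0142 did not hold after adjustment over all probe sets (adjusted p = 0.637). The SD of its change, 0.12, lay at the 6.46 percentile of the array. A dim second probe set (mean 3.83, below the 25th percentile) gave -0.04 (SE 0.06, adjusted p = 0.956), with 4 of 9 pigs higher. Its changes did not follow those of the brightest across pigs (r = 0.00285). Its gene identifier in the probe table is not in the RefSeq gene table, while that of the brightest is.

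CEBPD encodes C/EBP delta, a basic leucine zipper factor of the acute phase response that both glucocorticoids and inflammatory cytokines induce. It had the highest mean change of the targets and differed widely between pigs before ligation. Its brightest probe set ran from 9.21 in pig 12 through 9.82 to 10.75 in pig 10 at baseline, and from 9.60 in pig 12 through 10.15 to 10.70 in pig 6 in failure. Pig 12 was lowest at both times, and the baseline of pig 10 was above every failure value. The mean went from 9.91 ± 0.46 to 10.10 ± 0.38 (SD, n = 9), a change of 0.19 (SE 0.09, interval -0.01 to 0.39, adjusted p = 0.825), or 1.14-fold (0.992 to 1.31). It was higher in 7 of 9 pigs, up to 0.54 in pig 13, and lower in pigs 10 and 14. Its SD at baseline lay at the 94.7 percentile of the array and that of its change at the 84.7 percentile.

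The 3 probe sets of CEBPD gave changes of the same sign and unequal size. The third (mean level 5.84) gave 0.18 (SE 0.08, adjusted p = 0.819), with 6 of 9 pigs higher. The second (mean level 7.52) gave 0.07 (SE 0.11, adjusted p = 0.952), with 4 of 9 pigs higher and 1 large value, 0.83 in pig 9. Baseline levels of the brightest and the third probe set followed each other across pigs (Pearson r = 0.988, exact permutation p = 1.93e-05, adjusted over 14 relations 0.00027; Spearman rho = 0.950, exact p = 0.000353; r = 0.974 without pigs 10 and 12). They were the only pair of probe sets of 1 gene, of 14 relations in levels and changes, that passed. For the changes of the same pair r was 0.560, and for those of the brightest and the second probe set it was 0.081.

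PER1 encodes a repressor of the CLOCK and BMAL1 pair in the circadian clock and has receptor binding sites near its start, through which glucocorticoids can reset peripheral clocks. Its mean was almost the same at both times. Baseline levels ran from 10.85 in pig 12 through 11.12 to 11.49 in pig 5, and failure levels from 10.75 in pig 9 through 11.17 to 11.64 in pig 13. Failure values thus spread to both sides of the baseline values. The mean went from 11.14 ± 0.22 to 11.16 ± 0.27 (SD, n = 9), a change of 0.02 (SE 0.07, adjusted p = 0.983). As a ratio of failure to baseline this was 1.01, with an interval of 0.918 to 1.12. Single pigs went from -0.36 (pig 9) to 0.31 (pig 12), and 6 of 9 were higher. The sign of so small a mean is not settled, since it was -0.02 with an RNA quality covariate. A second probe set (mean 5.38) gave 0.07 (SE 0.07, adjusted p = 0.929), with 5 of 9 pigs higher.

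SGK1 encodes a serine/threonine kinase downstream of PI3K that regulates sodium and potassium channels, and the mineralocorticoid receptor induces it as well. Among the targets its change varied most between pigs. Its 1 probe set ran from 8.20 in pig 12 through 8.56 to 9.38 in pig 10 at baseline and from 8.39 in pig 9 through 8.77 to 9.51 in pig 6 in failure. The groups overlapped almost wholly, with means of 8.69 ± 0.35 and 8.86 ± 0.38 (SD, n = 9). The mean change was 0.17 (SE 0.14, interval -0.13 to 0.47, adjusted p = 0.916), or 1.12-fold (0.912 to 1.39). Behind it stood changes of 0.95 in pig 6, 0.73 in pig 5, 0.57 in pig 12 and 0.43 in pig 13, values near 0 in pigs 8 (0.12) and 14 (0.02), and changes of -0.32 in pig 10, -0.46 in pig 11 and -0.50 in pig 9. Without pig 6 the mean was 0.07. The SD of these changes, 0.53, lay at the 97.8 percentile of the array, where the median probe set had 0.22. The 3 pigs that were lower in failure were the 3 with the highest baseline levels: 9.38 in pig 10, 9.02 in pig 11 and 8.90 in pig 9. A change contains its baseline value, so this order is a description and no separate result.

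**Figure D2:**
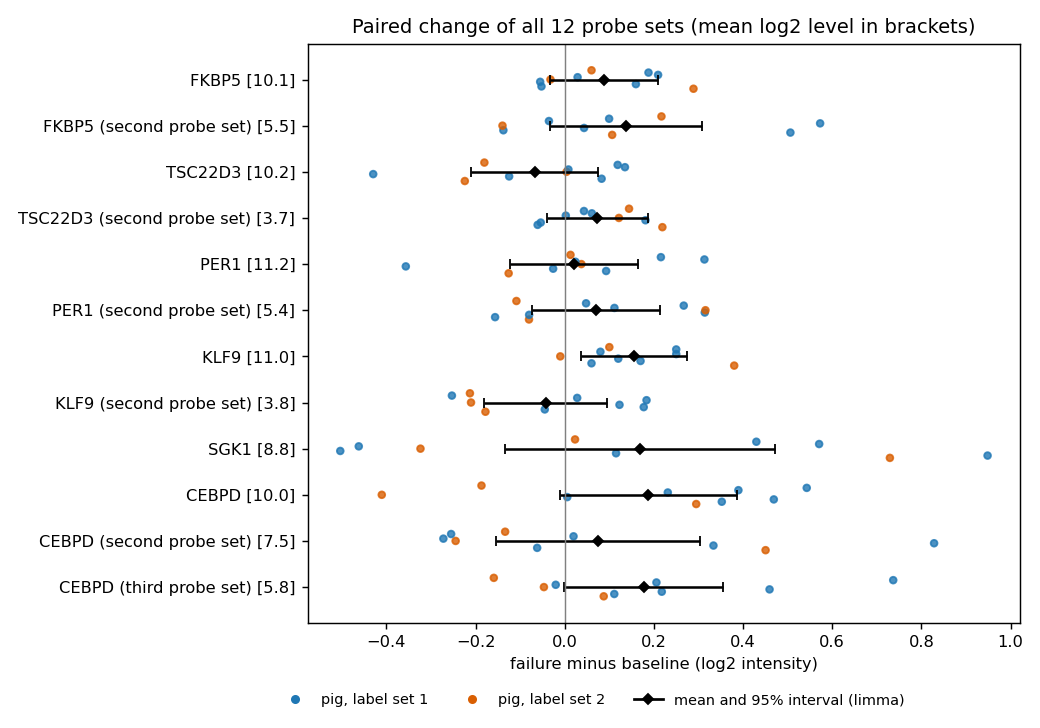
Failure minus baseline in log2 intensity (horizontal axis) for all 12 probe sets, with a point per pig coloured by label set and a diamond with the 95% limma interval. The intervals include 0 for 11 of the 12 probe sets, all but the brightest of KLF9, and the points of SGK1 spread from -0.50 to 0.95.

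A pig's baseline level was compared with its failure level over the 9 pigs, in 6 relations chosen after the values had been seen. The value was highest for FKBP5 (r = 0.848, exact permutation p = 0.00558, adjusted 0.0335; rho = 0.867, exact p = 0.00451; r = 0.751 without pigs 6 and 11). For CEBPD r was 0.725 (exact p = 0.0264, adjusted 0.0399; rho = 0.750; 0.730 without pigs 10 and 12), and for TSC22D3 it was 0.711 (exact p = 0.0309, adjusted 0.0399; rho = 0.817; 0.637 without pigs 5 and 10). KLF9 had r = 0.805 (exact p = 0.0113, adjusted 0.034) but rho = 0.549 (exact p = 0.132), and r was 0.220 without pigs 6 and 9, so its relation rests on the pair of pigs that were highest at both times. PER1 had r = 0.702 (exact p = 0.0333, adjusted 0.0399; rho = 0.750), which was 0.357 without pigs 5 and 13 and rests on them. For SGK1 it was near 0 (r = -0.0621, exact p = 0.876, rho = -0.0500, r = -0.177 without pigs 10 and 11). Differences between these coefficients were not tested. The share of all probe sets with such an r was not counted. Samples of the same pig resembled each other over the whole array as well. After removal of group means, r between them was 0.449 to 0.750, the best match in 9 of 9 pigs. With pig as a random effect, the fitted correlation within pigs over all probe sets was 0.477. Whether the targets kept their levels more closely than other genes was therefore not tested.

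**Figure D3:**
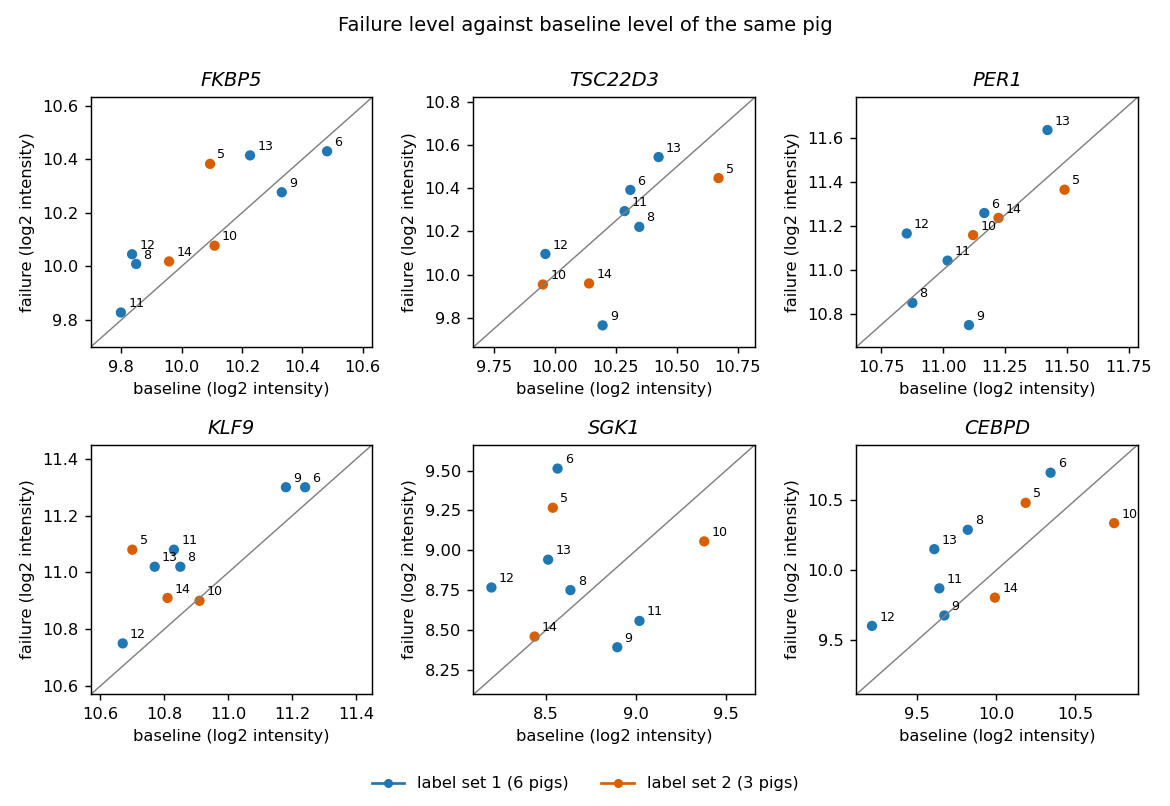
Failure level against baseline level of the same pig, both in log2 intensity, for 6 target genes, with the line of equal levels and a numbered point per pig. The points of FKBP5 lie along the line (r = 0.848), while those of SGK1 scatter on both sides of it (r = -0.0621).

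Whether the targets varied together between pigs was examined in 30 relations between genes, 15 of changes and 15 of baseline levels. Only the changes of TSC22D3 and PER1 passed (r = 0.941, exact permutation p = 2.2e-05, adjusted 0.000661; rho = 0.967, exact p = 0.000165, adjusted 0.00496). Both genes were lowest in pig 9, with -0.43 for TSC22D3 and -0.36 for PER1, and highest in pig 12, and the signs matched in 8 of 9 pigs. Without pigs 5 and 9 r was 0.812, within label set 1 it was 0.964 (label set 2 has too few pigs), and leaving out 1 pig gave 0.874 at the lowest, without pig 9. At baseline the levels of the pair had r = 0.635, which did not pass (adjusted 0.480), and in failure r was 0.681. Among pairs of the 4924 named genes above the median level, 0.0544% had an r of changes this high or higher. The dim second probe sets of both genes did not follow the brightest (r of changes -0.0702 for PER1 and -0.617 for TSC22D3).

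In their changes over the 9 pigs, the genes nearest to TSC22D3 were NDUFV1, a subunit of respiratory complex I (r = 0.955), ACTB, the cytoplasmic actin (0.950), and AQP1, a water channel of endothelium (0.948). For PER1 they were AQP1 (0.948), CBLB, a ubiquitin ligase (0.947), and NDUFV1 (0.945). PER1 was the 7th gene in the order for TSC22D3, and TSC22D3 the 5th in that for PER1. These are the highest of 4924 values each and are given as a description. Whether the nearest genes are themselves receptor targets was not tested.

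Other pairs of targets did not pass. FKBP5 and KLF9 had r = 0.662 between changes (exact p = 0.0520, adjusted 0.480) and 0.747 between baseline levels (exact p = 0.0196, adjusted 0.294). SGK1 and CEBPD had r = 0.581 between changes (exact p = 0.103, adjusted 0.520), and 6 of 9 pigs had the same sign. Of the 15 pairs, r between changes was above 0 in 13, with a median of 0.425, beside 52.3% and 0.0267 over all pairs of the 4924 genes. KLF9 was in both pairs below 0, with TSC22D3 (-0.187) and PER1 (-0.178). The genes nearest to FKBP5 were KIAA0753 (0.976) and CEP295 (0.964), both of the centriole, and PABPC1, the poly(A)-binding protein (0.932). Nearest to KLF9 were PAN2, a deadenylase (0.908), N4BP1 (0.902) and TBRG1 (0.889). SGK1 lay nearest to PDLIM4, a PDZ and LIM domain protein (0.982), HYAL2, a hyaluronidase (0.972), and NFKBIB, an inhibitor of NF-kB (0.918). CEBPD lay nearest to SP110, a nuclear body protein (0.961), ENPP1, a pyrophosphatase (0.942), and C1QTNF3 (0.930).

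**Figure D4:**
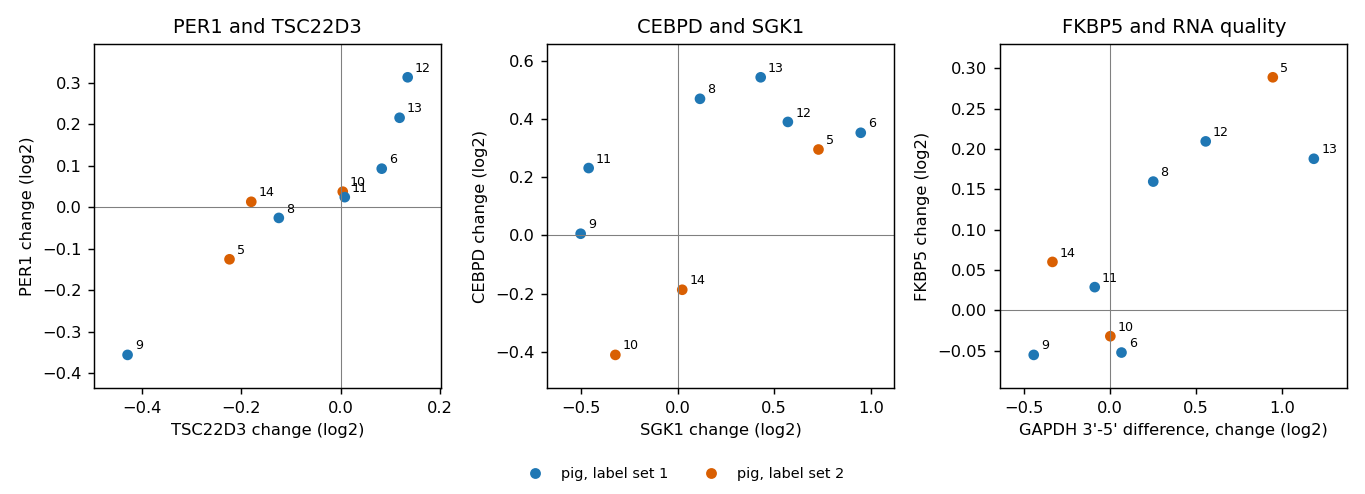
Paired changes in log2 intensity, a numbered point per pig: PER1 against TSC22D3 (r = 0.941), CEBPD against SGK1 (r = 0.581), and FKBP5 against the change in the GAPDH 3' minus 5' difference (r = 0.816), with label sets in 2 colours. In the first panel pig 9 is lowest and pig 12 highest on both axes.

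RNA integrity varied beside these changes. The array carries control probe sets at the 3' and the 5' end of GAPDH, and their log2 difference grows where RNA is broken or copied incompletely. It ran from 0.608 to 2.61 at baseline and from 0.306 to 3.55 in failure, and was highest in pig 5 at both times. Its paired change was 0.237 ± 0.556 (SD, n = 9), higher in 6 of 9 pigs (exact sign-flip permutation p = 0.246). The changes of all 6 targets had r above 0 with it. The share of all genes with such an r was not counted, and the targets' changes mostly went with each other as well. Of 12 relations with the GAPDH difference and with inflammatory genes, 0 passed. FKBP5 came closest (r = 0.816, exact p = 0.00804, adjusted 0.0964; rho = 0.783; r = 0.721 without pigs 5 and 13; 0.808 within label set 1), followed by CEBPD (0.644, adjusted 0.287) and SGK1 (0.633, adjusted 0.287). For KLF9 r was 0.571, and -0.111 without pigs 5 and 13. With the mean change of IL6, CXCL8, CCL2 and PTGS2, which the receptor represses, r ran from -0.470 for TSC22D3 to 0.517 for KLF9. The value of KLF9 was 0.0438 without pig 5 and -0.214 within label set 1, and that of TSC22D3 was -0.285 at the weakest with 1 pig left out.

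With the GAPDH difference as a covariate, the change of KLF9 was 0.13 (interval 0.00254 to 0.25, adjusted p = 0.762). SGK1 moved from 0.17 to 0.03 (interval -0.25 to 0.30), CEBPD from 0.19 to 0.10, FKBP5 from 0.09 to 0.04 and PER1 from 0.02 to -0.02, while TSC22D3 moved from -0.07 to -0.10. None of these passed (0 of 12 probe sets). The slope on the GAPDH difference itself passed for 184 probe sets of the array and 0 of the 12 (SGK1 0.61, SE 0.22, adjusted p = 0.259; CEBPD 0.37, SE 0.15, adjusted p = 0.301). The relation of PER1 and TSC22D3 was about as close with that difference held constant (partial r = 0.926) and with the like difference of actin held constant (0.905). For SGK1 and CEBPD r went from 0.581 to 0.293 with the GAPDH difference held constant and to 0.283 with that of actin. FKBP5 and KLF9 went from 0.662 to 0.414 and to 0.515. Each of them also followed the actin difference (r = 0.642 for PER1 and 0.606 for TSC22D3, and 0.924 and 0.895 without pigs 5 and 13), a comparison added after the data had been seen, in which 0 of 6 relations passed.

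Seen pig by pig, all 6 targets were higher in failure in pigs 12 and 13 (median changes 0.26 and 0.23), and 2 of 6 in pigs 9 and 10 (-0.21 and -0.02). The other pigs had 4 or 5 of 6 higher, with median changes from 0.02 in pig 14 to 0.29 in pig 5. Of all named genes, 41.2% to 55.7% were higher in each pig. The change in the GAPDH difference was highest in pig 13 (1.18), pig 5 (0.944) and pig 12 (0.555) and lowest in pig 9 (-0.443). Its part in the order of the pigs was not tested.

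The label sets were compared as an interaction in the same model, where 0 probe sets of the array (0%) and 0 of the 12 passed (adjusted p from 0.867 to 0.998). At an unadjusted p under 0.05 there was 1 of 12, the brightest of CEBPD, against 5.67% of all. CEBPD had changes of 0.33 ± 0.19 in label set 1 (6 of 6 pigs higher) and of -0.10 ± 0.36 in label set 2 (1 of 3 higher). The difference was -0.43 (SE 0.17, interval -0.79 to -0.08, adjusted p = 0.867). Within label set 1 alone the change of CEBPD had an adjusted p of 0.477. KLF9 had nearly equal means, 0.16 ± 0.08 in label set 1 and 0.16 ± 0.20 in label set 2 (difference 0.00167, interval -0.26 to 0.27). For SGK1 the sets had 0.18 ± 0.58 and 0.14 ± 0.54, and the interval of the difference, -0.71 to 0.63, is too wide to tell them apart.

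Genes that make up the pathway around these targets were counted in lists, each gene by its brightest probe set. In any of the 8 lists 0 genes passed. The counts of higher genes stand beside 46.4% higher over all named genes. Of the receptor and its chaperones, 9 of 11 listed were measured, 1 was higher and 8 were lower (median -0.05). The 1 higher gene was NR3C1, the receptor itself, which went from 5.36 ± 0.23 to 5.59 ± 0.53 (SD, n = 9; change 0.23, SE 0.12, interval -0.04 to 0.49, adjusted p = 0.853). In pig 5 it was higher by 1.28, and without that pig the mean change was 0.10. It is dim on this array, and its other 3 probe sets gave 0.07, -0.05 and -0.00086. PTGES3, the p23 co-chaperone that stabilises hormone-binding receptor, gave a mean change of -0.16 (SE 0.07, adjusted p = 0.727). HSPA8, the constitutive HSP70, gave -0.10 (adjusted p = 0.878), and -0.06 without pig 13. FKBP4, the co-chaperone that takes the place of FKBP5 when hormone binds, gave -0.21 (SE 0.16, adjusted p = 0.899). Its mean rests on pig 9 (-1.35), without which it was -0.07, and 5 of 9 pigs were higher. NR3C2, the mineralocorticoid receptor, has no probe set in the table used here.

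Genes that activate, inactivate or carry cortisol were measured for 3 of 6, 2 higher and 1 lower (median 0.10). HSD11B1, which regenerates cortisol from cortisone, gave 0.10 (SE 0.07, adjusted p = 0.890; 0.07 without pig 8), with 7 of 9 pigs higher. HSD11B2, which inactivates cortisol, gave -0.01 (adjusted p = 0.995; 0.02 without pig 5), and SERPINA6, the plasma carrier, 0.12 (adjusted p = 0.886). Coregulators of the receptor were measured for 6 of 12, 5 higher and 1 lower (median 0.03), with NCOA1 at 0.10 (adjusted p = 0.890; 0.05 without pig 5), NCOR1 at 0.06 (0.01 without pig 5 and 0.12 without pig 6) and MED14 at 0.05 (0.03 without pig 5).

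A longer list of other receptor targets, chosen with results of these data known, had 27 of 42 genes measured, 18 higher and 9 lower (median 0.03), where 46.4% of all named genes were higher. At an unadjusted p under 0.05 there were 6 higher and 0 lower, where 2.48% of named genes were higher with such a p. ANGPTL4, an inhibitor of lipoprotein lipase, had a mean change of 0.35 (SE 0.09, adjusted p = 0.380), with 8 of 9 pigs higher, but its second probe set had 0.06. PDK4, which shuts off pyruvate oxidation, had 0.22 (SE 0.07, adjusted p = 0.571), also with 8 of 9 pigs higher. RGS2, a regulator of G protein signalling, had 0.25 (SE 0.09, adjusted p = 0.695).

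Inflammatory genes that the receptor represses were all measured, 13 of 13, with 10 higher and 3 lower (median 0.06). The share over all named genes was 46.4% higher. TNF had a mean change of -0.34 (SE 0.15, adjusted p = 0.753), VCAM1 of 0.30 (adjusted p = 0.830) and CCL2 of 0.57 (SE 0.32, adjusted p = 0.864). Single pigs weigh heavily here: the mean was -0.18 for TNF without pig 8, 0.17 for VCAM1 without pig 5 and 0.26 for CCL2 without pig 5. Partners of PER1 in the circadian clock were measured for 6 of 18, 2 higher and 4 lower (median -0.04). ARNTL, which encodes BMAL1, had 0.11 (adjusted p = 0.878), DBP -0.06 (adjusted p = 0.933) and RORA 0.15 (adjusted p = 0.947). Leaving out 1 pig took ARNTL to 0.07 (pig 9), DBP to -0.09 (pig 11) and RORA to 0.03 (pig 5) or 0.28 (pig 6). PER2 and NR1D1 have no probe set in the table used here.

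**Figure D5:**
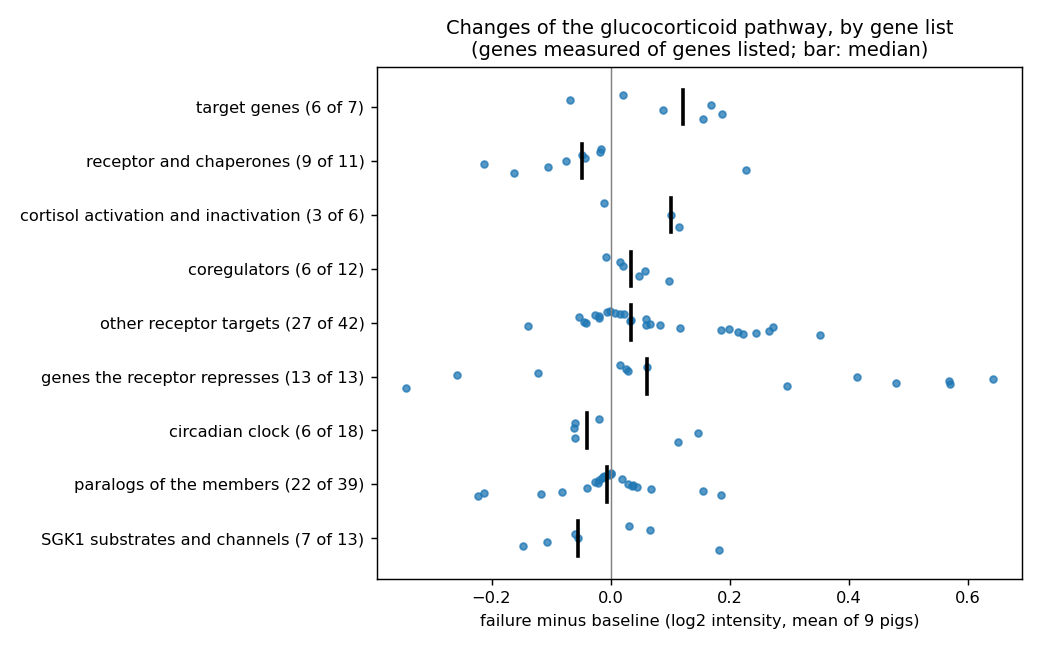
Mean paired change in log2 intensity (horizontal axis) of each measured gene, a point per gene, in the target genes and 8 lists of the pathway, with a bar at each list's median. The medians run from -0.05 to 0.12, and 0 genes of these lists passed the threshold.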

How the data were processed

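RNA of 18 samples was measured on Affymetrix 3' IVT arrays from total RNA, per the labels' protocols. The authors deposited log2 intensities, 1 value per probe set and array. Some probe sets carry only 2 decimals, most others more. Those with 2 include KLF9, PTGES3, ANGPTL4, PDK4, KLF13, SCNN1B, ALAS2, AHSP, HBM and HBE1. KLF9, PTGES3, ANGPTL4, KLF13, SCNN1B and ALAS2 had the smallest p of their lists. Whether such probe sets were processed differently is not known, and its bearing on their p was not tested. The submitters' processing notes name Partek, and how background and scaling were handled is not given in the sources used here. Array medians ran from 5.59 to 5.66, so a shift common to most transcripts would not be seen. The highest correlation between arrays was 0.995, and 0 pairs were identical. Of 24123 probe sets, 188 controls were left out. A probe-to-gene table named 1 gene for 10099 probe sets, and the brightest probe set represented a gene.

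Failure was compared with baseline with limma 3.58.1 in R 4.3.3 (eBayes after lmFit with a term per pig, two-sided), with Benjamini-Hochberg adjustment over 23935 probe sets and a threshold of 0.05. Adjusted p-values of genes come from this fit. The labels give each pig's number to both its samples; after removal of group means r between them was 0.449 to 0.750, the best match in 9 of 9 pigs. Correlations over pigs used exact permutation, two-sided, with adjustment within each family. Precision is limited by the number of animals.

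The genes and lists were chosen with earlier results of these data known. Named are all targets, the 3 genes nearest to each in paired changes, up to 3 genes per list with the smallest p, and NR3C1, NR3C2, HSD11B1, HSD11B2, FKBP4, PER2, ARNTL and NR1D1. Alternatives left out the block or took pig as a random effect, and used other scalings, variance models and a filter on dim probe sets, GAPDH or actin covariates, the mean of a gene's probe sets, each label set alone and each pig left out.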

Additional observations from a re-analysis of the deposited data

How the results depend on the processing

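The target probe sets had 0 calls in each of 20 alternatives (lowest adjusted p 0.477, CEBPD in label set 1 alone), and 227 of 236 recomputed changes kept their sign. Part of that count was fixed in advance. Leaving out the block, pig as a random effect, other variance models, the unmoderated test and the dim filter cannot alter a mean change. The change of KLF9 stayed between 0.13 and 0.18, FKBP5 between 0.04 and 0.11, SGK1 between 0.03 and 0.25 and TSC22D3 between -0.13 and -0.02. The sign of PER1 turned with the GAPDH covariate (-0.019), the actin covariate added after seeing the data (-0.0019) and label set 2 alone (-0.025), and leaving out 1 pig gave -0.016 to 0.068, below 0 without pig 12 or 13. In label set 2 alone the brightest probe set of CEBPD gave -0.10 and the third -0.039, and in label set 1 alone the second of KLF9 gave 0.036. Leaving out 1 pig gave -0.020 to 0.12 for the second of CEBPD, below 0 without pig 9. The mean of both probe sets of TSC22D3 gave 0.0026. For these reversals the cause was not tested.

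Over the whole array 16 probe sets passed. Without the replicate block 0 passed (440 at an unadjusted p under 0.05), as in an unmoderated paired test (1431) and in label set 2 alone (1211). With dim probe sets left out 9 passed, with trend and robust variance 10, with the GAPDH covariate 9 and in label set 1 alone 3. Leaving out 1 pig gave 2 to 26: 9 without pig 5, 26 without pig 8, 3 without pig 9, 2 without pig 10, 4 without pig 11 or 12 and 5 without pig 13. The block changed no call among the targets. The intervals of the brightest probe sets given here are those of the main fit, not of the alternatives. Their upper limits were folds of 1.16 for FKBP5, 1.12 for PER1, 1.21 for KLF9, 1.31 for CEBPD and 1.39 for SGK1.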

Other observations

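Related genes of the same families, and proteins that SGK1 acts on, were counted in the same way, and 0 of them passed. Of the paralogs of the targets 22 of 39 were measured, 10 higher and 12 lower (median -0.01). KLF13, a Krüppel-like factor like KLF9, had a mean change of -0.22 (SE 0.08, adjusted p = 0.681), opposite in sign to that of KLF9. CEBPB, the C/EBP family member that is also a receptor target, had 0.19 (SE 0.08, adjusted p = 0.753), and FKBP1B, which binds the cardiac calcium release channel, -0.12 (adjusted p = 0.887; -0.07 without pig 11). Of the kinases, channels and substrates around SGK1 7 of 13 were measured, 3 higher and 4 lower (median -0.05). SCNN1B, a subunit of the epithelial sodium channel, had 0.18 (SE 0.07, adjusted p = 0.687), with 7 of 9 pigs higher. NDRG2, a substrate of SGK1, had -0.15 (adjusted p = 0.865), and KCNE1, a potassium channel subunit, -0.11 (adjusted p = 0.918), with 4 of 9 pigs higher and a mean of -0.02 without pig 5 (-0.81 in that pig).

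Markers of other cells of the ventricle had 0 calls apart from those of red blood cells. Endothelial markers averaged 7.19 to 7.94 at baseline and 7.06 to 8.08 in failure and were higher in 5 of 9 pigs. Fibroblast markers averaged 8.94 to 9.59 and 8.92 to 9.75 (4 of 9 higher), and smooth muscle markers 9.27 to 10.30 and 9.21 to 9.97 (5 of 9 higher). Adipocyte markers averaged 7.46 to 8.01 and 7.25 to 8.12 (5 of 9 higher), and markers of monocytes and macrophages 6.48 to 6.98 and 6.55 to 7.30 (4 of 9 higher). The adipocyte average is carried by LPL and FABP4 (mean levels 10.81 and 11.03). LEP had 5.78, and ADIPOQ had 3.54, below the 25th percentile. The mean change was below 0 for LPL (-0.35) and above 0 for the other 3.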
